A study of Rattus norvegicus with 20 samples.

Results

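The genes described here are those of mitochondrial and peroxisomal fatty acid oxidation in rat liver. They were chosen by name, as a list of 39 enzymes, carriers and peroxisome assembly proteins of the pathway, and each was read from its brightest probe set. Of the 39 genes, 38 could be measured, out of 14217 genes measured in all. Acaa1a was not analysed, because its only probe set also carries the symbol of Acaa1b and cannot be assigned to either gene. The animals were male Harlan Sprague-Dawley rats, and their age is not given in the sources used here. They received triphenyl phosphate (TPHP), an organophosphate used as a flame retardant and plasticiser, dissolved in corn oil, by oral gavage once daily for 4 days, and the left liver lobe was sampled on day 5. The 20 Affymetrix arrays comprise 5 arrays of rats given corn oil alone (vehicle) and 3 arrays at each of 55, 110, 220, 440 and 881 mg/kg. All groups share strain, sex, vehicle and schedule. The sample labels write the fourth dose as 440 mg/kg and the study's design text as 441 mg/kg. The label text also speaks of 3 rats in each group, whereas the vehicle group holds 5 arrays. Nothing in the labels says that arrays of a group come from different rats, so each p-value reflects only how far these samples differ among themselves, and some of that can be technical.

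Fatty acids that enter a hepatocyte are bound by a carrier protein, coupled to coenzyme A and passed into mitochondria through the carnitine shuttle, where acyl-CoA dehydrogenases start each turn of beta oxidation and hand their electrons to the electron transfer flavoprotein. Peroxisomes shorten very long and branched chains, and export the products as carnitine esters. In rodent liver many of these genes are known targets of PPAR alpha, the nuclear receptor activated by fatty acids and by peroxisome proliferators. Peroxins are the proteins that import enzymes into peroxisomes and control the number of these organelles.

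Values are log2 intensities after RMA, a standard summary of Affymetrix probes, and have no true zero. A difference of 1 on this scale is a doubling of intensity. Array medians lay between 6.31 and 6.40. Replicate 2 of the 881 mg/kg group stood apart: its 3' minus 5' difference of the Gapdh control probe sets, a measure of RNA quality, was 5.24 against 0.81 to 1.64 on the other 19 arrays. Its median correlation with the other arrays was 0.979, against 0.990 to 0.994 for the others. Results at 881 mg/kg are therefore given with and without it where it matters. Of the 13 hepatocyte markers measured, 1 rose and 2 fell at 881 mg/kg (median log2 change -0.074), and none of the falls was called without that array. In the same comparison 8 of 11 Kupffer cell, 8 of 14 stellate and 4 of 12 endothelial markers fell, with medians of -0.69, -0.57 and -0.42, and without that array 5, 3 and 1 did. Lymphocyte markers fell for 3 of 12 and blood markers for 2 of 7, and 1 of 7 cholangiocyte markers rose. Of all genes 12.7% rose and 6.73% fell at 881 mg/kg, and 7.62% and 3.93% without that array. At 440 mg/kg 3 of 11 Kupffer cell, 6 of 14 stellate and 5 of 12 endothelial markers fell, against 4.28% of all genes. Their medians there were -0.63, -0.59 and -0.60, while 0 of 12 lymphocyte and 0 of 7 blood markers fell. The summed log2 level of the hepatocyte markers was 18.14 to 18.16 on the vehicle arrays and 18.03 to 18.13 at 881 mg/kg, and that of the Kupffer cell markers was 13.82 to 14.04 and 13.10 to 13.57. In whole tissue, fewer cells of a type and less RNA per cell cannot be told apart. The part of these shifts in the results that follow was not tested.

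The 5 promoters printed next belong to the 4 members with the largest falls at 881 mg/kg, Crot, Acsl5, Crat and Pex11a, and to Fabp1, the liver fatty acid binding protein. They are RefSeq sequences of build GRCr8, read 5' to 3' on the gene's strand from 250 bases before to 50 bases after the start. Capitals mark matches, on either strand, to GGGCGG (the GC box), CCAAT (the CCAAT box), and AGGTCA or AGGNCANAGGNCA (the nuclear receptor core site and its direct repeat with a spacer of 1 base, the form bound by PPAR alpha).
Crot: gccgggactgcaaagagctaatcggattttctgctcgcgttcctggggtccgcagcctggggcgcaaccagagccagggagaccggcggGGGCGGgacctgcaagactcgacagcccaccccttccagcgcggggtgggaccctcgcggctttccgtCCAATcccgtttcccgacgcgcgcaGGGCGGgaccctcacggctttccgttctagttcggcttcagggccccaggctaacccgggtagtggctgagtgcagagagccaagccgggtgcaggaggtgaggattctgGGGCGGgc
Crat: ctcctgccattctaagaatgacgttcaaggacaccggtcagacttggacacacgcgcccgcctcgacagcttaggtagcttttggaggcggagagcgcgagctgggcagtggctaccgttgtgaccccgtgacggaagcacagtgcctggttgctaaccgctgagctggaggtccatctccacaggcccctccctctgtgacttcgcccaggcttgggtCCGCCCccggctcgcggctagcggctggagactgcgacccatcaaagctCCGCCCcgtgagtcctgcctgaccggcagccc
Acsl5: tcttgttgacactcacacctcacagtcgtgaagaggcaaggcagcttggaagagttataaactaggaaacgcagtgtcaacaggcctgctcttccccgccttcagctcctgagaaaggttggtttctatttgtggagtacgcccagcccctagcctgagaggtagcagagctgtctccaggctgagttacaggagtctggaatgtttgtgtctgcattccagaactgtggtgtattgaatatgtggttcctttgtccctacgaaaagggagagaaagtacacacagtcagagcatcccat
Pex11a: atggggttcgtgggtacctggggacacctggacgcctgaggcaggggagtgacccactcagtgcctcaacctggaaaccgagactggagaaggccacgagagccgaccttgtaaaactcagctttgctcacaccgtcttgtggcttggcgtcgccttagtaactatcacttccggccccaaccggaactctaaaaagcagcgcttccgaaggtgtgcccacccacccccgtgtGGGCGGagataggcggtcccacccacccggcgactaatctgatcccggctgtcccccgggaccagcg
Fabp1: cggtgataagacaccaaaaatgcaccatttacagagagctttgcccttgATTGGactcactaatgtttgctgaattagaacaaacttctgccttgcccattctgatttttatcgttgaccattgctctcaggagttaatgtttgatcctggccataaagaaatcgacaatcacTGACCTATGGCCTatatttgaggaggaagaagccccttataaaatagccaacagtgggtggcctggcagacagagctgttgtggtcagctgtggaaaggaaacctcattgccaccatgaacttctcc

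In order, these windows lie at chr4:26052874-26053173 (plus strand), chr3:34087050-34087349 (minus strand), chr1:264294601-264294900 (plus strand), chr1:143096442-143096741 (minus strand) and chr4:104749090-104749389 (plus strand). A window was found for 33 of the 38 members, and those without one are Acadl, Acaa2, Decr1, Pex2 and Pex6. The GC box stood in 24 of the 33 windows (72.7%), against 33.1% of all 33469 promoter windows. Crot held 3 of these, Crat 2, Pex11a 1 and Acsl5 none. The CCAAT box stood in 13 members (39.4%) and in 37.5% of all windows. The strict repeat AGGTCANAGGTCA was found in 0.0538% of all windows and in 0 of the 33 members. The looser AGGNCANAGGNCA was found in 0.415% of all windows and in 1 member, Fabp1, on the minus strand with its first base at position -77 from the start. The core site AGGTCA, which is part of that match, stood in 8 members (24.2%) and 16.2% of all windows. TATAAA, left in lower case, stood in 4 members (12.1%), among them Acsl5 and Fabp1, and in 14.2% of all windows. None of the 6 members that fell at 881 mg/kg held the core site or either repeat within these windows. A match describes letters only, and binding was not measured.

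At no dose were more than 9 of the 38 members called, and the largest falls were those of Crot, Acsl5, Crat and Pex11a. A gene is called, and said to rise or fall, where limma's moderated test over all 20 arrays gave a Benjamini-Hochberg adjusted p under 0.05 across the 14217 genes. At 881 mg/kg 2 members rose and 6 fell, or 21.1% of the 38, against 19.5% of all genes called. By direction, 5.26% of the members rose against 12.7% of all genes, and 15.8% fell against 6.73%. At 440 mg/kg 3 rose and 6 fell (23.7%), against 11% of all genes, of which 6.76% rose and 4.28% fell (7.89% and 15.8% of the members). The background at 881 mg/kg moved with the array that stood apart. Without 881 mg/kg replicate 2, 18.4% of the members were called there against 11.6% of all genes, with 5.26% rising against 7.62% and 13.2% falling against 3.93%. The same omission at 440 mg/kg left the members at 23.7% and gave 14.1% of all genes. At the lower doses 1 member rose and 1 fell at 55 mg/kg, where 2.81% of all genes were called (1.93% up, 0.879% down). At 110 mg/kg 1 rose and 2 fell, against 3.61% of all genes (2.36% up, 1.24% down), and at 220 mg/kg 0 rose and 2 fell, against 3.43% (2.25% up, 1.18% down). At an unadjusted p under 0.05 there were 7 members at 55 mg/kg, 8 at 110 mg/kg, 12 at 220 mg/kg, 13 at 440 mg/kg and 17 at 881 mg/kg. These are 18.4%, 21.1%, 31.6%, 34.2% and 44.7% of the 38, against 15.9%, 16.7%, 16.6%, 25.6% and 33.4% of all genes. With quantile normalization the split at 55 mg/kg was 0 rising and 1 falling. The 5 comparisons share the same vehicle arrays.

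Across the members the median log2 change was -0.047 at 881 mg/kg and 0.0085 at 440 mg/kg, against 0.00072 and -0.0016 over all genes. Over all doses 12 members were called at least once and 26 at none. Of the 12, 7 were called at both 440 and 881 mg/kg, 2 at 440 but not at 881 mg/kg, and 1 at 881 but not at 440 mg/kg. The matching shares of all genes were not computed, so these counts cannot be set against a background. Members below vehicle at all 5 doses numbered 12 and those above it at all 5 numbered 11, while 22.4% and 25.8% of all genes did so. Groups of arrays that did not overlap vehicle were counted too. At 55 mg/kg all dosed arrays lay above vehicle for 9 members and below it for 3, against 9.33% and 4.26% of all genes. At 110 mg/kg these were 3 and 8 members (7.62% and 5.28% of all genes), and at 220 mg/kg also 3 and 8 (7.95% and 5.02%). At 440 mg/kg 4 members lay above and 10 below (12.8% and 8.4%), and at 881 mg/kg 2 above and 7 below (13.4% and 8.31%). The 8 members below at 110 or 220 mg/kg are 21.1% of the 38, and the 10 at 440 mg/kg 26.3%. The direction of the count at 881 mg/kg moved with scaling: with each array centred on its median, 5 members rose and 5 fell, against 16% and 4.81% of all genes, Etfa, Decr1 and Hsd17b4 being the added rises and Hadha the lost fall. Without 881 mg/kg replicate 2, 2 rose and 5 fell, with Acadm and Hadha lost and Phyh gained, against 7.62% and 3.93% of all genes.

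**Figure D1:**
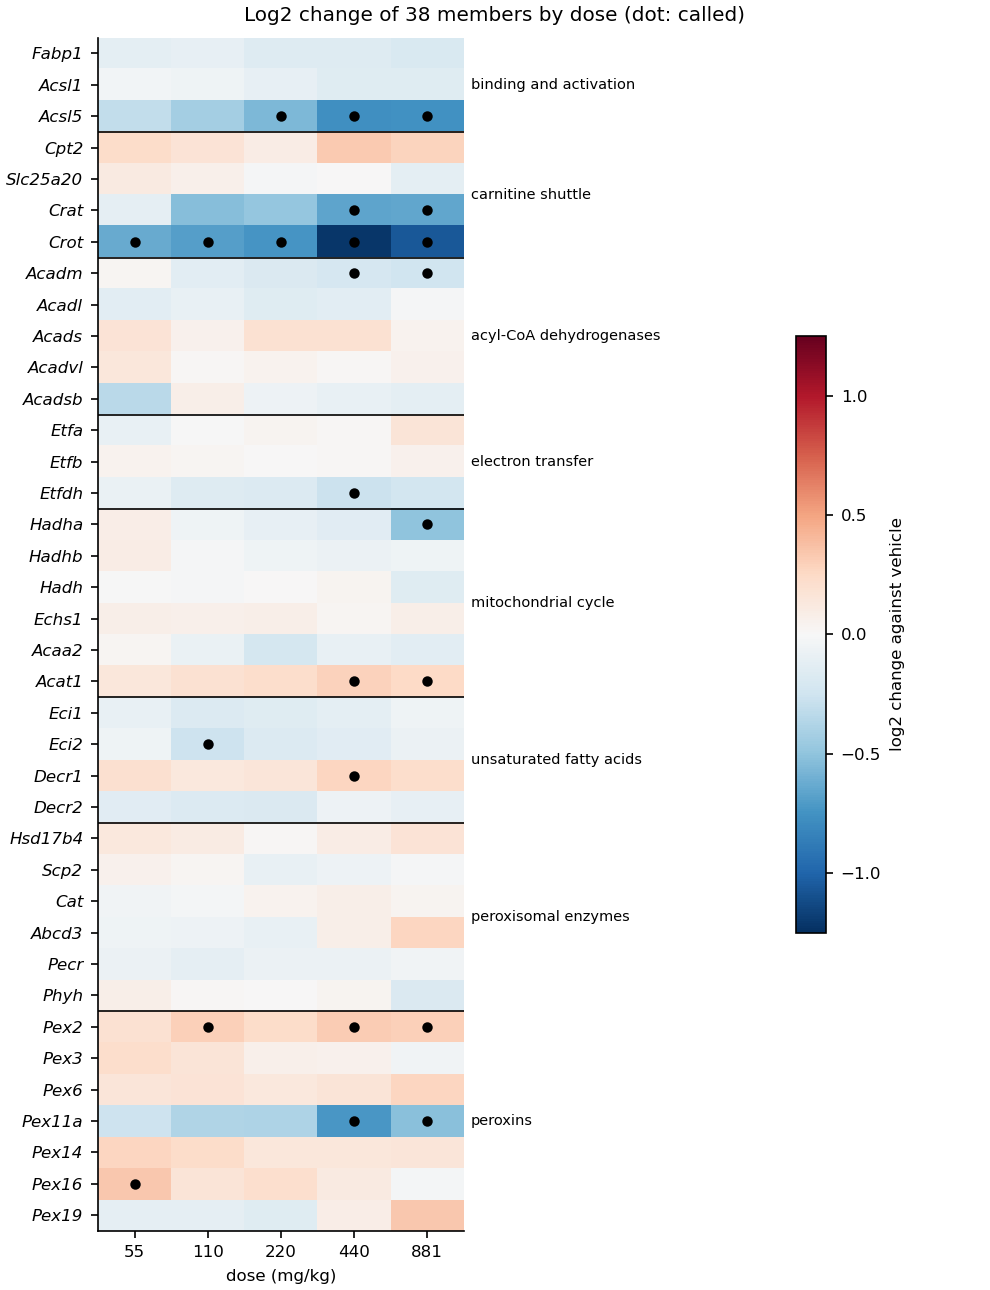
Heat map of the log2 change against vehicle for the 38 measured members (rows, grouped by role) at the 5 doses in mg/kg (columns), with red above and blue below vehicle and a black dot where limma called the change. The darkest cells are Crot at 440 mg/kg (-1.22) and 881 mg/kg (-1.06), and most cells carry no dot.

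The carnitine group held the largest change. Crot, the peroxisomal carnitine octanoyltransferase that turns shortened acyl chains into carnitine esters for export to mitochondria, fell at every dose. Its vehicle arrays read 11.83, 11.96, 11.89, 11.93 and 11.72. It read 11.17, 11.33 and 11.20 at 55 mg/kg, then 11.50, 11.12 and 10.90 at 110 mg/kg, and 11.16, 11.29 and 10.94 at 220 mg/kg. At 440 mg/kg it read 10.47, 11.09 and 10.38, and at 881 mg/kg 10.94, 10.62 and 10.85. All 15 dosed arrays lay below all 5 vehicle arrays. Intensity changed by -35.4%, -37.9%, -40.0%, -57.0% and -52.0% from the lowest to the highest dose (log2 -0.63, -0.69, -0.74, -1.22 and -1.06, SE 0.14). The adjusted p was 0.0239, 0.0115, 0.00765, 2.49e-05 and 7.22e-05. The calls at 440 and 881 mg/kg held under every alternative run, while that at 55 mg/kg was lost in 6 of 20, with adjusted p between 0.00328 and 0.156. Those at 110 and 220 mg/kg were lost in 2 and 1 of 20, with adjusted p up to 0.103 and 0.0574. Its other probe sets also fell at 881 mg/kg, by 1.67 (adjusted p = 0.00724) and 0.43 (adjusted p = 0.0456) on the log2 scale. The dimmer of them had a mean of 5.65 over all arrays, below the median of 6.36 over all probe set values.

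Crat, the carnitine acetyltransferase that buffers acetyl-CoA in mitochondria and peroxisomes, fell at the highest doses. Its vehicle arrays spread from 9.56 to 10.20, reading 10.00, 9.70, 9.91, 10.20 and 9.56. It read 9.50, 9.85 and 9.94 at 55 mg/kg, 9.19, 9.28 and 9.55 at 110 mg/kg, and 9.51, 9.59 and 9.08 at 220 mg/kg. The first of these groups overlapped vehicle, and so did the third. At 440 mg/kg Crat read 9.20, 9.05 and 9.38, and at 881 mg/kg 8.9994, 9.42 and 9.26, all below the lowest vehicle array. Its changes were -36.9% and -36.1% (log2 -0.66 and -0.65, SE 0.15, limma adjusted p = 0.00812 and 0.00606). Of 20 alternatives at 440 mg/kg 1 lost the call, the one that left out replicate 2 of that group (adjusted p = 0.0577). Its log2 change of -0.53 at 110 mg/kg was not called, but was in 6 alternatives. The inner-membrane members of the shuttle were not called at any dose with all arrays and no replicate block. Cpt2, the inner carnitine palmitoyltransferase, stood at 0.33 at 440 mg/kg and 0.27 at 881 mg/kg (adjusted p = 0.0914). With the replicate block it rose by 0.42 and 0.37 at these doses (adjusted p = 0.0176 and 0.0231), and it was also called without vehicle replicate 4 (adjusted p = 0.0265 and 0.0339). Slc25a20, the carnitine-acylcarnitine carrier, stood at -0.12 (adjusted p = 0.42) at 881 mg/kg.

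Among the members that bind and activate fatty acids, Acsl5 fell and the others were not called at any single dose. Acsl5, a long-chain acyl-CoA synthetase of mitochondria and endoplasmic reticulum, read 11.80, 11.85, 11.99, 12.00 and 11.89 on the vehicle arrays. It read 11.32, 11.80 and 11.67 at 55 mg/kg and 11.34, 11.65 and 11.46 at 110 mg/kg. It read 11.10, 11.56 and 11.38 at 220 mg/kg, 11.34, 11.09 and 10.97 at 440 mg/kg, and 11.19, 10.82 and 11.43 at 881 mg/kg. All 15 dosed arrays lay below all 5 vehicle arrays, at 55 mg/kg by a margin lost in rounding. Its changes at 220, 440 and 881 mg/kg were -32.0%, -41.3% and -40.8% (log2 -0.56, -0.77 and -0.76, SE 0.14, limma adjusted p = 0.0290, 0.00127 and 0.000871). The call at 220 mg/kg was lost in 6 of 20 alternatives, among them the replicate block (adjusted p = 0.102) and the mean of probe sets (log2 -0.24, adjusted p = 0.198). The falls rest on the brighter probe set: the other Acsl5 probe set changed by 0.22 (adjusted p = 0.186) at 440 mg/kg and 0.0018 (adjusted p = 0.992) at 881 mg/kg. With the mean of both probe sets the change at 881 mg/kg was -0.38 and still called, and the call at 440 mg/kg was lost (adjusted p = 0.0739). Fabp1, which carries fatty acids within the hepatocyte, read 14.61, 14.54, 14.47, 14.50 and 14.48 in vehicle. It read 14.37, 14.42 and 14.42 at 55 mg/kg, 14.36, 14.45 and 14.43 at 110 mg/kg, 14.33, 14.38 and 14.37 at 220 mg/kg, 14.45, 14.36 and 14.28 at 440 mg/kg, and 14.37, 14.15 and 14.47 at 881 mg/kg. The highest dosed array, 881 mg/kg replicate 3, and the lowest vehicle array both read 14.47 and differ only in the fourth decimal, and Fabp1 was called at no single dose. Its change at 881 mg/kg was -0.19 (SE 0.071, adjusted p = 0.0645), and that of Acsl1, the main liver acyl-CoA synthetase, was -0.15 (adjusted p = 0.13). Without 881 mg/kg replicate 2 these were -0.10 (adjusted p = 0.38) and -0.078 (adjusted p = 0.54).

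**Figure D2:**
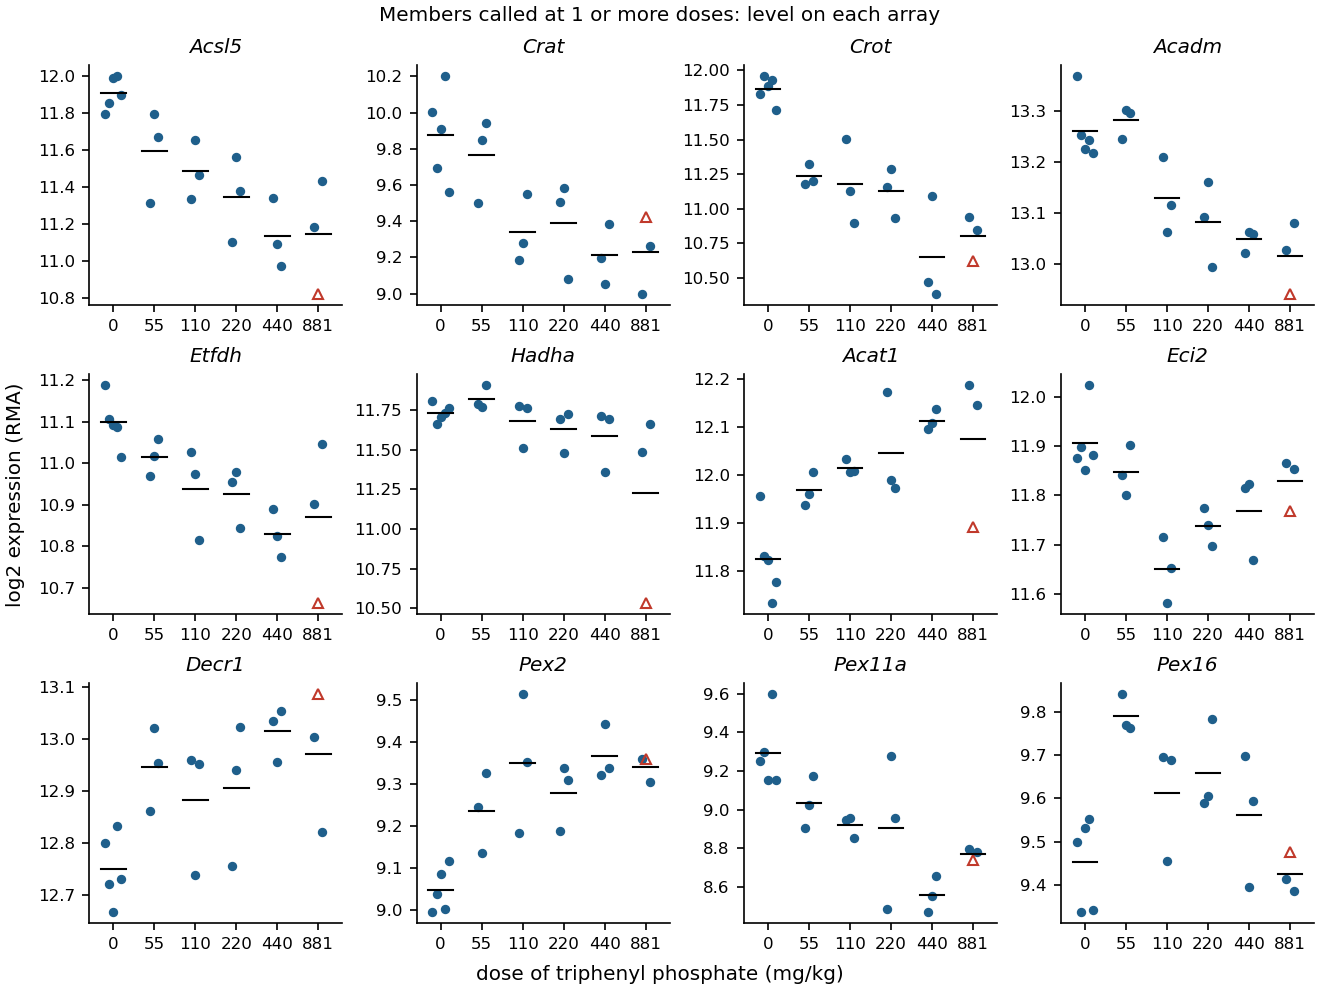
Log2 intensity on each of the 20 arrays, by dose in mg/kg, for the members called at any dose. Each panel is 1 gene with its own vertical axis, bars mark group means and the red open triangle is 881 mg/kg replicate 2; all 15 dosed Crot arrays lie below its vehicle arrays, and the Hadha triangle (10.54) lies below every other Hadha array.

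The acyl-CoA dehydrogenases, which differ in the chain length they accept, were mostly near vehicle. Acadm, the medium-chain enzyme, was the member of the 5 that fell. Its vehicle arrays read 13.37, 13.25, 13.22, 13.24 and 13.22. It read 13.25, 13.30 and 13.30 at 55 mg/kg, 13.21, 13.06 and 13.12 at 110 mg/kg, and 13.09, 13.16 and 12.99 at 220 mg/kg. It then read 13.02, 13.06 and 13.06 at 440 mg/kg, and 13.03, 12.94 and 13.08 at 881 mg/kg. The lowest dose overlapped vehicle and each higher dose lay below it. Acadm fell by 13.8% at 440 mg/kg and 15.7% at 881 mg/kg (log2 -0.21 and -0.25, SE 0.063, limma adjusted p = 0.0352 and 0.0104). The first call was lost in 10 of 20 alternatives, among them centring on array medians (adjusted p = 0.0555), and the second in 2 of 19, 1 of them that without 881 mg/kg replicate 2, where the adjusted p was 0.0598. Acadl (long chain), Acads (short chain), Acadvl (very long chain) and Acadsb (short branched chain) stood at -0.011, 0.047, 0.052 and -0.12 at 881 mg/kg, and limma called none of them at any dose. Each of these 4 changed sign under at least 1 alternative. Acadsb was dim, with a vehicle mean of 5.58 against a median of 6.36 over all probe set values. Its lack of a call therefore says little.

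Electrons from these enzymes pass through the electron transfer flavoprotein, whose subunits are Etfa and Etfb, to its dehydrogenase Etfdh in the inner membrane. Etfdh was the member that fell here, at 440 mg/kg. It read 11.19, 11.11, 11.09, 11.09 and 11.02 in vehicle, 10.97, 11.02 and 11.06 at 55 mg/kg, and 11.03, 10.98 and 10.81 at 110 mg/kg. It read 10.95, 10.98 and 10.84 at 220 mg/kg, 10.89, 10.83 and 10.78 at 440 mg/kg, and 10.90, 10.66 and 11.05 at 881 mg/kg. The 440 mg/kg arrays lay below all vehicle arrays, whereas the highest at 881 mg/kg overlapped them. The fall at 440 mg/kg was 17.0% (log2 -0.27, SE 0.079, limma adjusted p = 0.0362), and 8 of 20 alternatives lost the call, with adjusted p from 0.00896 to 0.138. At 881 mg/kg Etfdh stood at -0.23 (adjusted p = 0.0511) and was called in 6 alternatives, but without 881 mg/kg replicate 2 it was -0.12 (adjusted p = 0.33). Etfa stood at 0.16 (adjusted p = 0.13) and Etfb at 0.054 (adjusted p = 0.68) at that dose.

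In the mitochondrial cycle itself 1 of 6 members rose at 440 mg/kg, and 1 rose and 1 fell at 881 mg/kg. Acat1, the mitochondrial acetoacetyl-CoA thiolase used in ketone body and isoleucine metabolism, was the member that rose. It read 11.96, 11.83, 11.82, 11.73 and 11.78 in vehicle, then 11.94, 11.96 and 12.01 at 55 mg/kg and 12.03, 12.01 and 12.01 at 110 mg/kg. It read 12.17, 11.99 and 11.97 at 220 mg/kg, 12.10, 12.11 and 12.14 at 440 mg/kg, and 12.19, 11.89 and 12.15 at 881 mg/kg. The 110, 220 and 440 mg/kg groups lay above vehicle, and at 881 mg/kg replicate 2 overlapped it. Acat1 rose by 22.2% and 18.9% at 440 and 881 mg/kg (log2 0.29 and 0.25, SE 0.074, limma adjusted p = 0.0165 and 0.0237). The call was lost in 3 of 20 alternatives at 440 mg/kg and in 5 of 19 at 881 mg/kg, with adjusted p up to 0.0711 and 0.113.

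Hadha, the alpha subunit of the trifunctional protein that carries out the later steps on long chains, was called at 881 mg/kg, and the call rested on 1 array. Its vehicle arrays read 11.81, 11.66, 11.71, 11.73 and 11.76, and the 881 mg/kg arrays 11.49, 10.54 and 11.66. The 10.54 belongs to replicate 2, and replicate 2 was the lowest Hadha array in every group. The other dosed arrays read 11.79, 11.77 and 11.91 at 55 mg/kg, 11.78, 11.51 and 11.76 at 110 mg/kg, 11.69, 11.48 and 11.73 at 220 mg/kg, and 11.71, 11.36 and 11.69 at 440 mg/kg, and each of these groups overlapped vehicle. With all arrays Hadha fell by 0.51 on the log2 scale (SE 0.17, limma adjusted p = 0.0420). Without replicate 2 the change was -0.16 (adjusted p = 0.36), and the call was lost in 11 of 19 alternatives. Its partner subunit Hadhb stood at -0.056 and Hadh, Echs1 and Acaa2, the enzymes for shorter chains, at -0.15, 0.076 and -0.13, none of them called.

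Unsaturated fatty acids need isomerases and reductases before the cycle can go on. Decr1, the mitochondrial dienoyl-CoA reductase, rose at 440 mg/kg. It read 12.80, 12.72, 12.67, 12.83 and 12.73 in vehicle, 12.86, 13.02 and 12.95 at 55 mg/kg, and 12.96, 12.74 and 12.95 at 110 mg/kg. It read 12.76, 12.94 and 13.02 at 220 mg/kg, 13.04, 12.96 and 13.05 at 440 mg/kg, and 13.00, 13.09 and 12.82 at 881 mg/kg. All arrays at 55 and 440 mg/kg lay above vehicle, and the other groups overlapped it. The rise at 440 mg/kg was 20.2% (log2 0.27, SE 0.081, limma adjusted p = 0.0407), lost in 9 of 20 alternatives with adjusted p from 0.0246 to 0.137. At 881 mg/kg the change was 0.22 (adjusted p = 0.0619), and 0.27 and called (adjusted p = 0.0294) with arrays centred on their medians. Without 881 mg/kg replicate 2 it was 0.16 (limma adjusted p = 0.26).

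Eci2, an enoyl-CoA isomerase of peroxisomes and mitochondria, fell at 110 mg/kg alone among the 5 doses tested against vehicle. It read 11.88, 11.90, 11.85, 12.02 and 11.88 in vehicle, 11.84, 11.80 and 11.90 at 55 mg/kg, and 11.72, 11.58 and 11.65 at 110 mg/kg. It read 11.78, 11.74 and 11.70 at 220 mg/kg, 11.82, 11.82 and 11.67 at 440 mg/kg, and 11.87, 11.77 and 11.85 at 881 mg/kg. The 110, 220 and 440 mg/kg groups lay below vehicle, and the highest dose overlapped it. The log2 change at 110 mg/kg was -0.26 (SE 0.064, limma adjusted p = 0.0310), lost in 7 of 20 alternatives with adjusted p up to 0.142. Whether the 110 mg/kg value differs from those at higher doses was not tested. Eci1, the mitochondrial isomerase, and Decr2, the peroxisomal reductase, stood at -0.055 and -0.11 at 881 mg/kg and were not called.

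None of the 6 peroxisomal enzymes and transporters measured was called by limma at any dose, although Hsd17b4 and Phyh had an unadjusted p under 0.05 at 881 mg/kg. With all arrays the largest change at 881 mg/kg was that of Abcd3, the transporter that takes long-chain acyl-CoA into peroxisomes. It read 11.64, 12.05, 11.83, 11.82 and 11.69 in vehicle and 11.84, 12.27 and 12.10 at 881 mg/kg. It read 11.50, 11.81 and 11.94 at 55 mg/kg, 11.45, 11.86 and 11.92 at 110 mg/kg, 11.51, 12.02 and 11.62 at 220 mg/kg, and 11.65, 12.05 and 11.95 at 440 mg/kg. Every dose overlapped vehicle, and the change at 881 mg/kg was 0.26 (95% interval -0.041 to 0.57, limma adjusted p = 0.21). Without 881 mg/kg replicate 2 it was 0.16 (adjusted p = 0.58), and Phyh then had the largest change of the 6. Hsd17b4, the peroxisomal bifunctional protein, stood at 0.17 (adjusted p = 0.0695), and at 0.22 and called (adjusted p = 0.0225) with arrays centred on their medians. Scp2, the peroxisomal thiolase and sterol carrier, stood at -0.011, Cat, the catalase that removes the hydrogen peroxide of this pathway, at 0.032, and Pecr, a trans-enoyl-CoA reductase, at -0.047.

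Phyh, the phytanoyl-CoA hydroxylase that starts the breakdown of branched chains, depended on 1 array. It read 13.62, 13.66, 13.69, 13.67 and 13.63 in vehicle, and 13.33, 13.71 and 13.39 at 881 mg/kg, where the 13.71 is replicate 2. With all arrays its change was -0.18 (SE 0.074, limma adjusted p = 0.0969). Without replicate 2 it was -0.30 and called (adjusted p = 0.00544). A second Phyh probe set was called with all arrays included (log2 -0.27, adjusted p = 0.0223). At 55 mg/kg Phyh read 13.75, 13.72 and 13.70, all above vehicle. It read 13.63, 13.65 and 13.71 at 110 mg/kg, and 13.69, 13.73 and 13.55 at 220 mg/kg, and both groups overlapped vehicle. At 440 mg/kg Phyh read 13.67, 13.71 and 13.67, a log2 change of 0.032.

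Of the 7 peroxins, Pex11a fell and Pex2 rose at both high doses. Pex11a promotes elongation and division of peroxisomes. Its vehicle arrays read 9.25, 9.30, 9.15, 9.60 and 9.15. It read 8.90, 9.02 and 9.18 at 55 mg/kg, 8.94, 8.96 and 8.85 at 110 mg/kg, and 8.48, 9.28 and 8.96 at 220 mg/kg. It read 8.47, 8.55 and 8.66 at 440 mg/kg and 8.79, 8.74 and 8.78 at 881 mg/kg. The 110, 440 and 881 mg/kg groups lay below all vehicle arrays. Its changes at 440 and 881 mg/kg were -39.8% and -30.3% (log2 -0.73 and -0.52, SE 0.13, limma adjusted p = 0.00133 and 0.00920), and both calls held under every alternative run. Its other probe set fell by 0.61 at 881 mg/kg (adjusted p = 0.00880) on the log2 scale. That probe set was dim, with a mean of 5.71 over all arrays.

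Pex2, part of the membrane complex that recycles the import receptor, read 8.996, 9.04, 9.09, 9.004 and 9.12 in vehicle. It read 9.25, 9.14 and 9.33 at 55 mg/kg, 9.18, 9.51 and 9.35 at 110 mg/kg, and 9.19, 9.34 and 9.31 at 220 mg/kg. It read 9.32, 9.44 and 9.34 at 440 mg/kg and 9.36, 9.36 and 9.31 at 881 mg/kg. All 15 dosed arrays lay above all 5 vehicle arrays. Pex2 rose by 23.2%, 24.8% and 22.5% at 110, 440 and 881 mg/kg (log2 0.30, 0.32 and 0.29, SE 0.074, limma adjusted p = 0.0299, 0.00879 and 0.00963). The other Pex2 probe set changed by 0.032 (adjusted p = 0.889) at 881 mg/kg, and with the mean of both the call there was lost (adjusted p = 0.187), as it was after quantile normalization (adjusted p = 0.0840). At 110 mg/kg 8 of 20 alternatives lost the call, among them the mean of probe sets (adjusted p = 0.0716).

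Pex16, which brings membrane proteins to peroxisomes, rose at the lowest dose. It read 9.50, 9.34, 9.53, 9.55 and 9.34 in vehicle and 9.84, 9.77 and 9.76 at 55 mg/kg, above all vehicle arrays. It read 9.70, 9.46 and 9.69 at 110 mg/kg, 9.59, 9.61 and 9.78 at 220 mg/kg, 9.70, 9.39 and 9.59 at 440 mg/kg, and 9.41, 9.47 and 9.38 at 881 mg/kg. Of these groups the 220 mg/kg arrays lay above vehicle, and the others overlapped it. The change at 55 mg/kg was 0.34 (SE 0.084, limma adjusted p = 0.0357), lost in 8 of 20 alternatives, and 0.13 (adjusted p = 0.427) with the mean of its probe sets. Pex3, Pex6, Pex14 and Pex19, which serve membrane protein insertion, receptor recycling, docking and chaperoning, stood at -0.048, 0.27, 0.15 and 0.33 at 881 mg/kg and were not called. Without 881 mg/kg replicate 2 they stood at 0.089, 0.035, 0.28 and 0.13.

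For the members without a call at 881 mg/kg a lack of change was not shown. These 30 genes ranged from -0.23 to 0.33, and for 26 of them the 95% interval of the log2 change lay within 0.5 of vehicle in either direction. The exceptions were Cpt2, Abcd3, Pex6 and Pex19, whose upper bounds were 0.51, 0.57, 0.53 and 0.68 with all arrays included. The limit of 0.5 is wider than some called changes, such as those of Acadm (-0.25) and Acat1 (0.25). Of the 38 members 17 had an unadjusted limma p under 0.05 at this dose, while 8 were called. Phyh, among these 30, was called without 881 mg/kg replicate 2 (log2 -0.30). The standard deviation of the members over the 5 vehicle arrays ran from 0.0254 to 0.253 (median 0.0716), and the median standard error of a member's change was 0.0822.

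**Figure D3:**
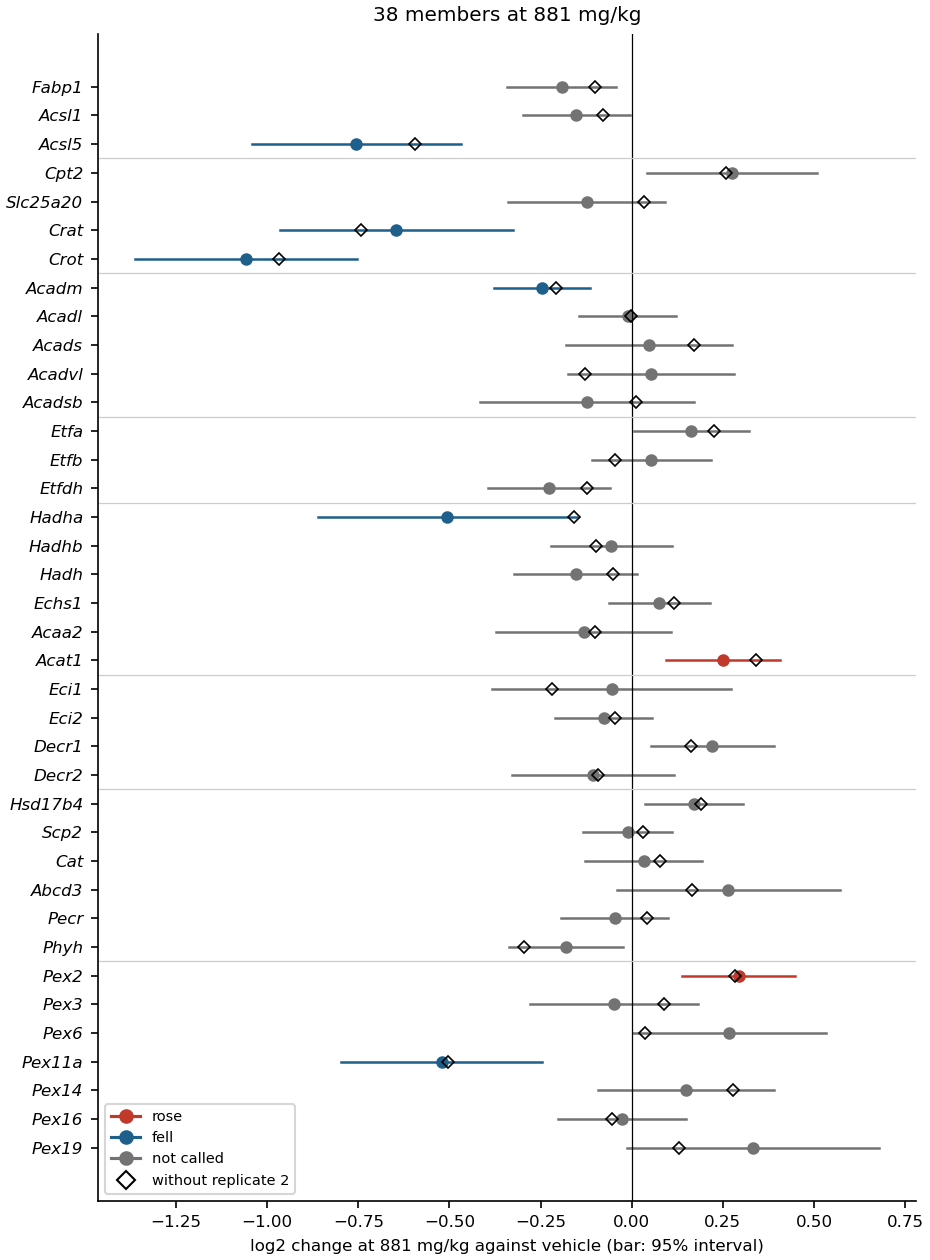
Log2 change at 881 mg/kg against vehicle for the 38 members with 95% intervals from limma (bars), grouped by role, red where it rose, blue where it fell and grey where not called; open diamonds give the value without 881 mg/kg replicate 2. Crot, Acsl5, Crat, Pex11a, Hadha and Acadm are the members that fell, and Hadha moves from -0.51 to -0.16 and Phyh from -0.18 to -0.30 without that array.

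The change per dose step was tested over all 20 arrays with the groups numbered from 0 to 5. Along the series 3 members rose and 9 fell, or 31.6%, against 21.7% of all genes (12.9% rising, 8.81% falling). Crot fell by 0.22 per step (SE 0.030, limma adjusted p = 3.42e-05), Acsl5 by 0.16 (adjusted p = 5.59e-05), Crat by 0.14 (adjusted p = 0.000630) and Pex11a by 0.12 (adjusted p = 0.00102). Acadm and Etfdh fell by 0.055 and 0.051 per step, and Acat1 and Pex2 rose by 0.053 and 0.058. The rise of Pex2 was lost with the mean of its probe sets (limma adjusted p = 0.101). The fall of Fabp1 (-0.036, adjusted p = 0.0320), Acsl1 (-0.033, adjusted p = 0.0331) and Hadha (-0.086, adjusted p = 0.0377) and the rise of Decr1 (0.043, adjusted p = 0.0332) were each lost when 881 mg/kg replicate 2 was left out, with adjusted p of 0.106, 0.101, 0.0840 and 0.0785. With arrays centred on their medians 5 members rose and 7 fell along the series, against 15.9% and 6.39% of all genes, and without 881 mg/kg replicate 2 these were 2 and 6 members, against 9.8% and 7.19%.

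The highest doses were also compared directly. Between 881 and 440 mg/kg 0 members were called by limma, against 0.26% of all genes. In this comparison 1 member, Phyh, had an unadjusted p under 0.05 (chosen after its values were seen). That is 2.63% of the members, against 10.6% of all genes. Phyh was lower at 881 than at 440 mg/kg once 881 mg/kg replicate 2 was left out (log2 -0.33, adjusted p = 0.0346), under array weights (adjusted p = 0.0292) and with the Gapdh ratio as a covariate (adjusted p = 0.0313). The median standard error of a member in this comparison was 0.0919.

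The rest of the pathway was read from lists of 107 further genes, 92 of them measured. At 881 mg/kg 21 of the 92 rose and 14 fell (22.8% and 15.2%, median log2 change 0.050), and without 881 mg/kg replicate 2 13 rose and 8 fell. At 440 mg/kg 14 rose and 6 fell. Of all genes 12.7% rose and 6.73% fell at 881 mg/kg, and 7.62% and 3.93% without 881 mg/kg replicate 2. The shares of all genes at 440 mg/kg were 6.76% and 4.28%. Among mitochondrial genes Cpt1a, the outer-membrane carnitine palmitoyltransferase that controls entry of long chains, fell by 0.96 (adjusted p = 0.000345), and the medium-chain synthetase Acsm3 by 0.78 (adjusted p = 0.0139). Acsm2, of the same synthetase family, rose by 0.98 (adjusted p = 0.00449) and Acad9, a dehydrogenase that also helps assemble respiratory complex I, by 0.76 (adjusted p = 4.57e-05). Unlike Crot, Cpt1a was not called below 881 mg/kg, where its log2 change was 0.32, 0.11, -0.13 and -0.15 in order of dose, and this contrast between the genes was not tested.

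Peroxisomal genes outside the 38 split in direction, with 7 of 42 rising and 9 falling at 881 mg/kg (median -0.035). Hao2, a hydroxy-acid oxidase, fell by 1.34 (adjusted p = 9.19e-05), Hacl1, which acts after Phyh in alpha oxidation, by 0.95 (adjusted p = 0.00157), and Agxt, which detoxifies glyoxylate, by 0.84 (adjusted p = 0.000136). Abcd2, a very-long-chain acyl-CoA transporter related to Abcd3, rose by 1.56 (adjusted p = 0.000135), and by 1.18 without 881 mg/kg replicate 2. It was dim in vehicle, with a mean of 5.51 against a median of 6.36 over all probe set values, and its mean at 881 mg/kg was 7.07. Of 6 further peroxins 2 rose, Pex26 by 0.58 and Pex7 by 0.43 (adjusted p = 0.00261 and 0.00325). In ketone body metabolism 2 of 4 genes rose, Aacs by 1.44 and Bdh2 by 0.68 (adjusted p = 0.000562 and 0.0104). Aacs spends acetoacetate on lipid synthesis, and both were also called at 440 mg/kg. Of 14 regulators Ppard fell by 0.40 and Ppargc1b by 0.46 (adjusted p = 0.0116 and 0.0304), while Pparg rose by 0.41 and Nr1h3, the liver X receptor alpha, by 0.29 (adjusted p = 0.0257 and 0.0383). Ppard was called at all 5 doses, at -0.49, -0.43, -0.54, -0.44 and -0.40 in order of dose. Without 881 mg/kg replicate 2 the 4 stood at 881 mg/kg at -0.37 (Ppard, adjusted p = 0.0519), -0.54 (Ppargc1b, adjusted p = 0.0382), 0.36 (Pparg, adjusted p = 0.116) and 0.22 (Nr1h3, adjusted p = 0.199). Bdh2 and Pparg were also below the median of all probe set values in vehicle, with means of 6.04 and 6.22.

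Known PPAR alpha targets moved in both directions. Of 27 measured, 5 of which are also in the lists of the rest of the pathway, 5 rose and 9 fell at 881 mg/kg (median -0.040). Of all genes 12.7% rose and 6.73% fell there. Without 881 mg/kg replicate 2 these were 4 and 8, against 7.62% and 3.93% of all genes. At 110 and at 220 mg/kg 0 rose and 4 fell. Of all genes 2.36% rose and 1.24% fell at 110 mg/kg, and 2.25% and 1.18% at 220 mg/kg. At 440 mg/kg 3 targets rose and 7 fell, with log2 changes from -3.12 to 1.49, against 6.76% and 4.28% of all genes. The largest changes at 881 mg/kg were those of Cyp4a8, Me1, Plin2 and Cidea, whose values follow below. Besides Plin2, the falls included Angptl4 (-1.24), Pdk4 (-1.22), Txnip (-1.19) and Cyp4a3 (-1.025). Plin2, which coats lipid droplets, fell by 1.80 (adjusted p = 6.05e-06), and the fatty acid hydroxylase Cyp4a8 rose by 1.91 (adjusted p = 0.000345). The vehicle mean of Cyp4a8 was 6.16, below the median of 6.36 over all probe set values. Me1, the malic enzyme, and Cidea, a lipid droplet protein, rose by 1.81 and 1.62 (adjusted p = 6.89e-05 and 0.0188). The respiratory chain, which takes up the electrons of beta oxidation, had few calls: 3 of 66 subunits rose at 881 mg/kg and no other was called (median -0.010), and 3 rose and 1 fell without 881 mg/kg replicate 2. These were Ndufs1 of complex I, Uqcrc1 of complex III and Atp5f1c of the ATP synthase, which rose by 0.35, 0.31 and 0.26 (adjusted p = 0.00283, 0.00454 and 0.00444).

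**Figure D4:**
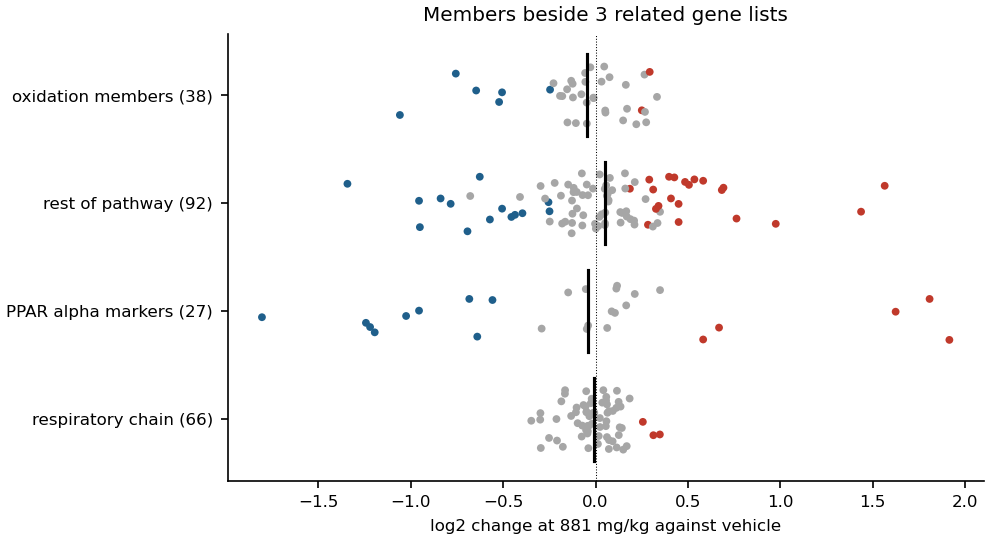
Log2 change at 881 mg/kg against vehicle of every measured gene (points) of the 38 members, the 92 other pathway genes, the 27 PPAR alpha targets and the 66 respiratory chain subunits. Red points rose, blue points fell, grey points were not called and black bars mark medians; the members lie between -1.06 and 0.33 and the other pathway genes between -1.34 and 1.56.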

How the data were processed

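RNA of 20 liver samples was labelled and hybridised to Affymetrix arrays. The deposited values are log2 intensities that the authors made with RMA, per the submitters' processing notes. For its version and settings: not given in the sources used here. RMA equalises array distributions, so a shift of all genes would not show. Of 31099 probe sets, 57 controls were left out, and 20826 of the remaining 31042 carry 1 gene symbol, 436 several and 9780 none. Of those with 1 symbol, 20758 matched RefSeq (GRCr8, used for names and promoters). The brightest probe set stood for each of 14217 genes. Groups were compared with limma 3.58.1 in R 4.3.3 (lmFit and eBayes, 1 model with the 6 dose groups, two-sided, Benjamini-Hochberg over all genes), and the code was tested on simulated data. Tables and figures used Python 3.11.15, pandas 2.3.3 and matplotlib 3.10.9. The number of arrays limits precision. Members, gene lists and markers were chosen with earlier results of these data known. Values on every array are given for up to 3 members per role group called at 881 mg/kg (or the most changed where none was) and for members called at a lower dose; Fabp1 and Phyh were added after their values were seen. From each other list up to 4 called genes with the largest changes are named. Alternatives covered scaling, probe set choice, a filter on dim genes, variance settings, RNA quality covariates, a replicate block and leaving out each array. Leaving out 881 mg/kg replicate 2 at the other doses was chosen after seeing the data. Probe sets with several symbols were not used.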

Additional observations from a re-analysis of the deposited data

Results flagged for a closer look

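In 3 of the 38 vehicle groups 1 array lay far from the other 4 by Dixon's test, and chance flags about 1 group in 20. For Acadm vehicle replicate 1 read 13.37, against 13.22 to 13.25 on the others. For Acaa2 vehicle replicate 2 read 13.42, against 13.60 to 13.65. For Eci2 vehicle replicate 4 read 12.02, against 11.85 to 11.90. Groups of 3 arrays were not checked in this way.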

How the results depend on the processing

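Of 721 alternative values of the members at 881 mg/kg, 634 kept their direction and their side of the threshold, 20 lost a call, 29 gained one and 38 changed sign. All 38 sign changes were of changes not called and near 0, and the cause was not tested. The Gapdh covariate gave Slc25a20 0.019, Acadvl -0.11, Etfb -0.034, Scp2 0.026, Pecr 0.026 and Pex3 0.068. Centring on array medians gave Acadl 0.035, Scp2 0.034 and Pex16 0.018. Quantile normalization gave Acadl 0.039, Acads -0.029, Cat -0.0031 and Pecr 0.0090. Array weights gave Acadvl -0.12, Acadsb 0.079, Etfb -0.045, Scp2 0.0085, Pecr 0.020 and Pex3 0.11. The beta-actin covariate gave Acadvl -0.095, Etfb -0.026, Scp2 0.021, Pecr 0.0098 and Pex3 0.041. The mean of probe sets gave Eci1 0.056. With 1 array left out in turn, the log2 change at 881 mg/kg ranged as follows: Slc25a20 from -0.23 to 0.035, Acadl from -0.043 to 0.014, Acads from -0.077 to 0.17 and Acadvl from -0.13 to 0.17. It ranged for Acadsb from -0.31 to 0.011, Etfb from -0.045 to 0.13, Eci1 from -0.22 to 0.077 and Scp2 from -0.057 to 0.032. It ranged for Cat from -0.067 to 0.086, Pecr from -0.094 to 0.041 and Pex3 from -0.16 to 0.089. The counts then ranged from 0 to 1 rising and 0 to 1 falling at 55 mg/kg, 0 to 1 and 0 to 3 at 110 mg/kg, 0 to 1 and 0 to 3 at 220 mg/kg, 0 to 4 and 3 to 6 at 440 mg/kg, and 0 to 1 falling from 440 to 881 mg/kg. At 881 mg/kg against vehicle 2 rose each time and 5 to 8 fell, with 8 falling without 881 mg/kg replicate 3. Quantile normalization, leaving out dim genes, the mean of probe sets and a trended robust variance also gave 8 falling there. The lowest count at 440 mg/kg was without 440 mg/kg replicate 2 (0 rising, 3 falling). Member counts moved by more than 1.5 times under these settings. At 55 mg/kg 0 rose with the replicate block, quantile normalization or the mean of probe sets, and 0 fell with the last. At 110 mg/kg 0 rose with the block, the mean of probe sets or only the compared groups, and 1 fell with the block or the mean. At 220 mg/kg array weights gave 3 rising and 7 falling, each covariate gave 1 rising, and the block 1 falling. At 881 mg/kg 5 rose after centring, 4 with dim genes left out or a trended robust variance, and 1 with the mean of probe sets or only the compared groups. Array weights and the Gapdh covariate each gave 1 falling from 440 to 881 mg/kg, and centring 5 rising along the series. The labels give same-numbered arrays nothing in common but the number. Their deviations had a median correlation of 0.14 over 45 pairs, 28 of them over 0.1, against -0.077 over 90 other pairs. Of 18 arrays 15 correlated best with their own number, a hint from the data and not the design. In every dosed group replicate 2 had the highest Gapdh and beta-actin 3' minus 5' differences. A link between these and the correlations was not tested. With the replicate block 2 members rose and 4 fell at 440 mg/kg, 2 and 6 at 881 mg/kg (Cpt2 gained, adjusted p = 0.0231, and Acat1 lost), and 3 and 8 along the series.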
